A study of Mus musculus with 8 samples.

Results

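The SIX-homeobox, EYA and DACH families form a transcriptional network of the vertebrate embryo, and their RNA was measured here on the left and right sides of the heart field. The genes described are Six2, Six4, Six5, Eya1, Eya2, Eya3, Eya4 and Dach1, taken by gene symbol from the deposited count table, which makes 8 genes of 48526. The tissue came from 4 wild-type male mouse embryos of the C57bl6/J strain at stage E8.5f, called L29-3, L43-5, L46-8 and L49-3 in the labels. Each embryo gave 1 left and 1 right library of polyA RNA, so that 8 libraries form 4 pairs, and the animal is the replicate. No treatment or allele distinguished the groups. The dissected pieces hold the progenitor region around the heart tube at the level of the anterior somites, without the tube itself or the dorsal tissue, and the midline separates the left piece from the right. In such bulk tissue, fewer cells of a type and less RNA per cell cannot be told apart.

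SIX-family proteins are homeodomain factors that bind DNA. EYA proteins do not bind DNA themselves but join SIX-family proteins as coactivators, and they also carry a tyrosine phosphatase domain. DACH proteins are related to SKI and act with the same complexes mostly as corepressors. With PAX factors upstream, the network is known for roles in cranial placodes, somites, kidney and pharyngeal arches. Eya1 is also known in the progenitors of the second heart field, the pharyngeal mesoderm that adds cells to the heart poles.

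The libraries held between 1147446 and 3520753 counts, with medians of 2316661 (left) and 1521742 (right). In 3 of 4 embryos the right library was the shallower of its pair, and in L43-5 it was the deeper, with 3520753 counts against 2864915. Values below are DESeq2-normalized read counts unless a raw count or another scale is named. The markers of the second heart field summed to between 632 and 1008 normalized counts in every library, and all 7 of them were detected. The sum of the juxta-cardiac field markers Tbx5, Mab21l2 and Hand1, genes of the progenitors at the rim of the cardiac crescent, was 48.0 and 51.5 in the libraries of L49-3 and between 203 and 425 in the other 6. The cardiomyocyte markers ranged from 356 to 4345, and the neural tube markers from 133 to 711.

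Among the SIX-family genes, Six2 and Six4 lie on chr17:85684277-85688274 and chr12:73099609-73113456, both on the minus strand, and Six5 on chr7:19094594-19098549 on the plus strand (GRCm38, GENCODE vM21). Promoter windows of 300 bases, from 250 before the transcript start, were given by RefSeq on GRCm38.p6 for 6 of the 8 genes, and 5 of these keep bases upstream of every annotated exon. Six2 had a large difference between sides in 1 embryo. Dach1 had the lowest unadjusted p between embryos of the tested members (0.0251, edgeR F test), but its adjusted p was 0.395. Six4 showed neither. For this reason the upstream stretches of Six2, Six4 and Dach1 are printed. They run 5′ to 3′ on the strand of the gene, at chr17:85688275-85688504, chr12:73113457-73113675 and chr14:98169766-98170015, and capitals mark each CG dinucleotide.
Six2: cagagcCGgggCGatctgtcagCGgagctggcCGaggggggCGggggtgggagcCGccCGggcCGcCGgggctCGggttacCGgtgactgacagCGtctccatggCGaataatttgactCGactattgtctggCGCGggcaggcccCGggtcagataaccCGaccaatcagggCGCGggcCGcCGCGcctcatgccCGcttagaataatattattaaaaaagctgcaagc
Six4: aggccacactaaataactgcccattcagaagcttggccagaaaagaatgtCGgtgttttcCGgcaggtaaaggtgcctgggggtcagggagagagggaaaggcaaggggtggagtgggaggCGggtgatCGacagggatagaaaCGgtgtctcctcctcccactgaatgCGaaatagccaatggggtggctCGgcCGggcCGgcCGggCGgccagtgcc
Dach1: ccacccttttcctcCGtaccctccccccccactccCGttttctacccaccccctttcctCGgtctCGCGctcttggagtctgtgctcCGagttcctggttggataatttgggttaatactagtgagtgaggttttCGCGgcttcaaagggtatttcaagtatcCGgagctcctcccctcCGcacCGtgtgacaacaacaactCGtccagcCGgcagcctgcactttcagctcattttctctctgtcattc
The whole Six2 window held 37 CG dinucleotides, more than 94.4% of the 32851 windows of the RefSeq table, where the median was 7. The Dach1 window held 13 and the 2 Six4 windows held 16 and 15. The motif CCAAT, searched on both strands, occurred once in the Six2 window and once in the second Six4 window, and 37.4% of all windows hold it. The SIX-family binding motif TCAGGTT was found in 1 of the 2 Six4 windows, 97 bases before its RefSeq start, and 4.07% of all windows hold it. The letters AATCCACA, a FOXH1 motif, were found in the Eya3 window alone among the genes described, against 0.855% of all windows. They lie 40 bases before its RefSeq start. Both of these hits are on the strand opposite to the gene, and both fall inside the annotated gene, not upstream of it. The TATA box letters TATAAA, held by 13.6% of all windows, were in no window of these genes. The nuclear receptor motif AGGTCA (16.3% of all windows) was also not found there. Nor was the SMAD motif GTCTAGAC (0.213%).

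Left and right levels of the 3 SIX-family genes overlapped. For Six2, a factor that keeps progenitors undifferentiated in the developing kidney, the raw counts of L29-3, L43-5, L46-8 and L49-3 were 102, 89, 98 and 86 from left tissue. From right tissue they were 49, 112, 62 and 39. After normalization the left libraries held 82.7, 58.0, 79.8 and 133 and the right libraries 60.7, 59.8, 78.7 and 64.8, so that the left library of L49-3 stood highest and those of L43-5 and L46-8 were nearly level across sides. The log2 ratio of left over right was 1.02 in L49-3, where the counting error of the 2 libraries is 0.28 on the same scale, and it was 0.45, -0.04 and 0.01 in L29-3, L43-5 and L46-8. An exact two-sided sign-flip permutation test of the 4 ratios gave p = 0.375 (4 embryos cannot reach 0.05). In the edgeR fit paired by embryo, the log2 fold change was 0.32 (SE 0.177), with a 95% interval from -0.06 to 0.71 and an adjusted p of 0.987. It was 0.13 without L49-3, with an unadjusted edgeR p of 0.460, and 0.47 without L43-5, with an unadjusted p of 0.0411.

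Six4, which acts beside other SIX-family factors in muscle and placode precursors, had nearly equal means on the left and right. Its left libraries held 143, 140, 118 and 133 normalized counts in L29-3, L43-5, L46-8 and L49-3, and its right libraries 102, 126, 160 and 126. The right libraries of L29-3 and L46-8 formed the lowest and the highest of the 8 values, so the right side spanned the left. The log2 fold change was 0.06 (SE 0.141), its interval ran from -0.24 to 0.37, and the exact permutation p of the embryo ratios was 0.625. Six4 has a second annotated transcript that shares stretches of at least 90% identity over at least 100 bases with transcripts of 689 other genes, against 10 for its first, and reads of such stretches may have been left uncounted or placed elsewhere. No other gene described here shares such a stretch.

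Six5, a SIX-family gene next to the Dmpk gene, held 47.8, 31.9, 34.2 and 52.6 normalized counts on the left and 40.9, 43.8, 44.4 and 44.9 on the right. Its left values fell on both sides of the right values, which lay close together (43.5 ± 1.81 against 41.7 ± 10.1 on the left, mean ± SD, n = 4 each). The log2 fold change was -0.12 (SE 0.198, interval -0.55 to 0.31), the only one of the tested members below 0. The annotated Dmpk gene lies 773 bases from Six5 and shares no annotated exon base with it. The RNAs of the remaining SIX-family genes reported here were scarce. Six3, a forebrain factor, had between 0 and 16 raw counts, and Six6, an eye and pituitary factor, had 0 in every library, where a floor of 3 counts corresponds to between 0.852 and 2.61 CPM, the count scaled to a common library size.

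**Figure D1:**
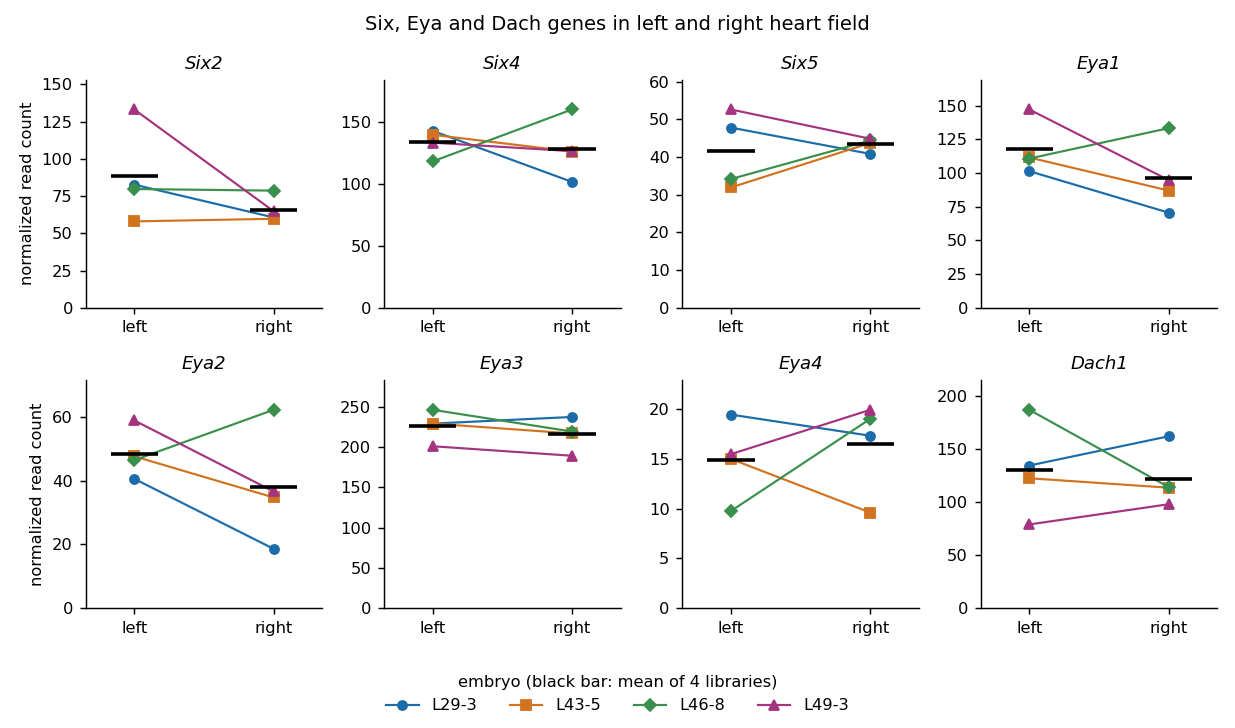
Normalized read counts of the 8 genes on the left and right, with a panel for each gene, lines joining the libraries of an embryo and black bars for the means of 4 libraries. The sides overlap in every panel; the Six2 line of L49-3 falls from 133 to 64.8, while the lines of L46-8 rise for Six4, Eya1 and Eya2.

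Eya1 and Eya2 had higher mean counts on the left, but L46-8 went the other way for both, and neither passed a test. Eya1, on chr1:14168954-14310235 (minus strand), encodes the coactivator whose loss affects ear, kidney and pharyngeal arch derivatives. Its left libraries held 101, 111, 111 and 147 normalized counts in L29-3, L43-5, L46-8 and L49-3, and its right libraries 70.6, 87.0, 133 and 94.7. The left exceeded the right in 3 of 4 embryos, and the right library of L46-8 was the second highest of all 8. The log2 ratios were 0.52, 0.35, -0.27 and 0.62, with counting errors from 0.158 to 0.242 and an exact permutation p of 0.25. The fitted log2 fold change was 0.28 (SE 0.150), with an interval from -0.04 to 0.61 and an adjusted p of 0.987. Leaving out L46-8 raised it to 0.48, with an unadjusted edgeR p of 0.00511.

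Eya2, on chr2:165595032-165771727 (plus strand), is an EYA coactivator of the muscle and placode lineages. It held 40.5, 47.6, 46.4 and 58.8 normalized counts on the left and 18.6, 34.7, 62.2 and 36.6 on the right. The lowest value, in the right library of L29-3, rested on 15 raw counts, and the highest was again the right library of L46-8. The log2 ratios of 1.09, 0.45, -0.42 and 0.66 were, like those of Eya1, above 0 in every embryo but L46-8, and the exact permutation p was 0.25. The log2 fold change was 0.38 (SE 0.237, interval -0.14 to 0.89), the largest among the tested members. It was 0.69 without L46-8, with an unadjusted edgeR p of 0.0111.

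Eya3, on chr4:132638987-132724765 (plus strand), is a widely expressed EYA gene also known for acting on phosphorylated histone H2AX in DNA repair. Its values were the most uniform: 229, 229, 247 and 201 normalized counts on the left and 238, 217, 220 and 189 on the right. Both libraries of L49-3 were the lowest of their side. The log2 fold change was 0.07 (SE 0.0826), and its interval, from -0.11 to 0.25, lies within the fold of 1.2 that the study required. This was the only tested member with an interval so narrow. The 3′ end of Eya3 lies 132 bases from Xkr8, which is on the opposite strand and shares no exon base with it. Eya4, on chr10:23102963-23350786 (minus strand), a gene linked to hearing and heart muscle disease, had between 10 and 24 raw counts per library. It reached 20 normalized counts in 0 of 8 libraries, did not pass the filter and was not tested. Its normalized counts were 14.9 ± 3.98 on the left and 16.5 ± 4.71 on the right (mean ± SD, n = 4 each), with 2 of 4 embryos higher on the left.

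Dach1, on chr14:97786853-98169765 (minus strand), encodes the DACH corepressor. It held 135, 123, 187 and 79.0 normalized counts on the left and 162, 114, 114 and 98.0 on the right. The highest value was the left library of L46-8 and the 2 lowest were both from L49-3. The log2 ratios were -0.26, 0.11, 0.70 and -0.32, of both signs and with an exact permutation p of 0.875. The fitted log2 fold change was 0.09 (SE 0.155, interval -0.24 to 0.43), and it turned to -0.12 without L46-8. Dach2, its paralogue on the X chromosome, had between 1 and 9 raw counts and was not tested.

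Considered as a group, 0 of the 7 tested genes differed between sides at an adjusted p under 0.05, and adjusted p-values lay between 0.987 and 0.990. In the same fit 0.0103% of the 9744 genes tested passed. The study asked for a 1.2-fold difference and an unadjusted p no higher than 0.05, and by that rule 0 of 7 passed against 3.05% of all genes (1.63% higher on the left), and DESeq2 and limma-voom also called 0. At an unadjusted p of at most 0.05 with no fold the count was again 0, against 4.36%. The fold changes of 6 of the 7, all but Six5, were above 0, as were 48.6% of those of all genes, and the median was 0.09 against -0.00. In 3 of 7, which were Six2, Eya1 and Eya2, the value reached a fold of 1.2 to the left at any p, as did 5.62% of all genes. In no member did the left exceed the right in all 4 embryos (6.26% of all genes), and in 5 of 8 it did so in 3 (31.4% in 3 or 4). The sides were separate without overlap in 0 of 8 members, against 2.51% of all genes (1.51% with the left higher).

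**Figure D2:**
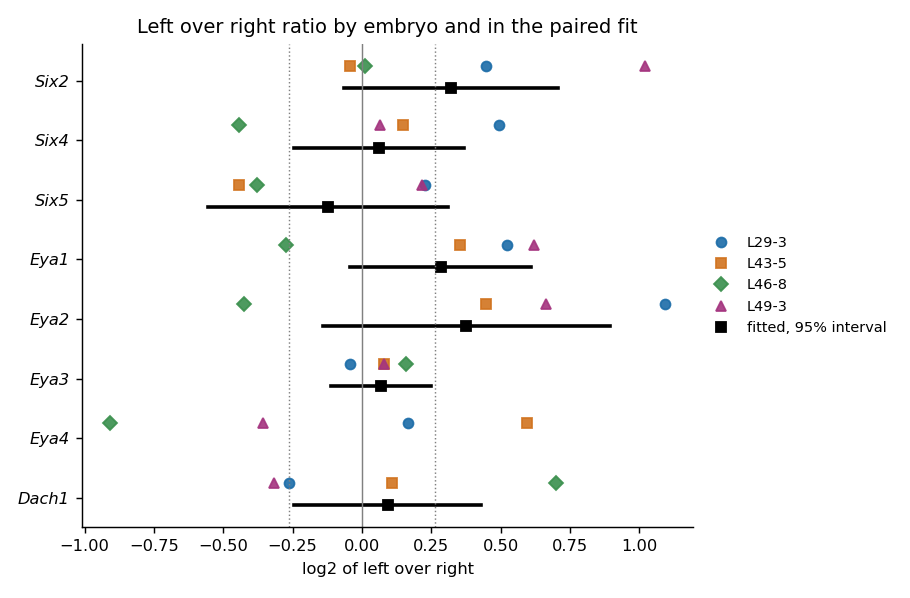
Log2 of left over right for each embryo (coloured symbols) and fitted with embryo as a block (black squares with 95% intervals; Eya4 was not fitted), with dotted lines at a fold of 1.2. Every interval covers 0, and the L46-8 symbol lies to the left for Six4, Six5, Eya1, Eya2 and Eya4 but far to the right for Dach1.

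Levels were compared between genes as TMM-scaled CPM per kilobase of annotated exon. On this scale Eya3 (21.2 ± 1.77) and Six2 (19.7 ± 6.29) stood above the rest (mean ± SD, n = 8 libraries). Eya3 was the higher of these in 7 of 8 libraries; the exception was the left library of L49-3, with 33.9 for Six2 and 19.2 for Eya3. Next came Dach1 at 9.34 ± 2.55, Eya2 at 7.88 ± 2.55, Six5 at 7.66 ± 1.23, Eya1 at 7.41 ± 1.70 and Six4 at 6.52 ± 0.879. These 5 had overlapping ranges, and neighbours in the order changed places in several libraries: Eya2 exceeded Six5 in 4 of 8 and Six5 exceeded Eya1 in 4 of 8. Eya4 was last at 0.902 ± 0.239, below every other member in 8 of 8. Among all genes tested, Eya3 stood at percentile 71.4 of level per kilobase, Six2 at 69.4 and Dach1 at 44.0. Eya4 did not pass the filter that those genes passed, so its percentile against them, 0.267, is not a rank among all genes.

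The order in the middle depended on the length used. With the longest transcript in place of all exons, Eya1 at 13.3 CPM per kilobase and Dach1 at 13.1 followed Six2, before Six4 at 10.4, Eya2 at 9.49 and Six5 at 7.66. Eya3, Six2 and Eya4 kept their places. Summed by family on the exon scale, the 3 SIX-family genes gave 33.9 ± 7.39 CPM per kilobase and the 4 EYA genes 37.4 ± 4.12. The ratio of the EYA sum to the SIX-family sum was 1.13 ± 0.177 and ranged from 0.820 in the left library of L49-3 to 1.43. Six2 supplied 57.3% of the SIX-family sum, with a range from 51.9% to 67.9%, and Eya3 supplied 57.2% of the EYA sum, from 46.9% to 71.1%. The SIX-family sum covers Six2, Six4 and Six5 alone.

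**Figure D3:**
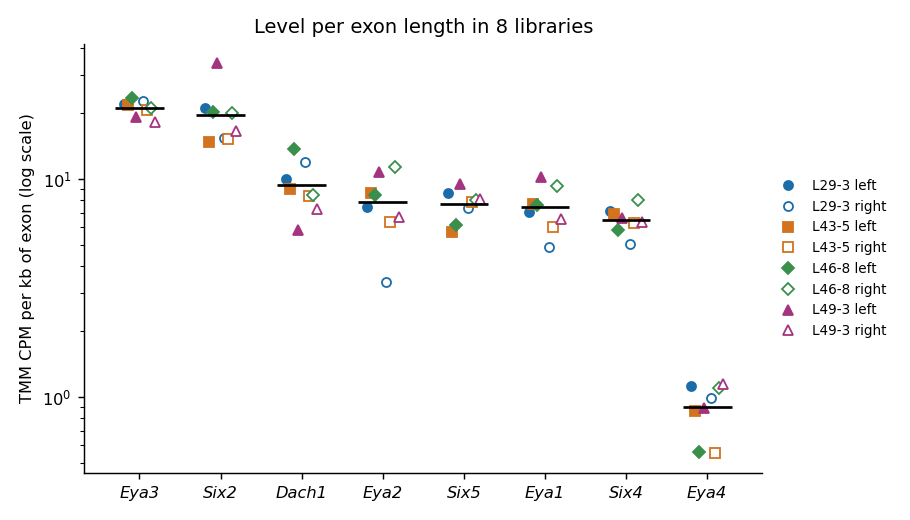
Level of each gene as TMM-scaled CPM per kilobase of annotated exon on a log axis, with a symbol for each of 8 libraries (filled for left, open for right) and black lines for means. Eya3 and Six2 lie near 20, 5 genes lie between 6 and 10 on average and Eya4 lies below 2.

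Between embryos, Dach1 differed most clearly of the tested members, and this did not pass the adjustment. With side as a covariate, its log2 levels in L29-3, L43-5, L46-8 and L49-3, relative to their mean, were 0.25, -0.07, 0.30 and -0.48, a range of 0.79. The unadjusted p of the edgeR F test was 0.0251, which became 0.395 when adjusted over all genes. Dach1 was thus 1 of 7 members at an unadjusted p of at most 0.05, against 9.99% of all genes, and 0 of 7 passed at an adjusted p under 0.05, against 0.174%. Without L49-3 the range of Dach1 fell to 0.36, with an unadjusted edgeR p of 0.187. DESeq2 gave an unadjusted p of 0.0627 and limma-voom 0.0327.

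Eya2 had the widest range of fitted embryo levels, 0.83, from -0.48 in L29-3 to 0.35 in L46-8, with an adjusted p of 0.652 in edgeR. Six2 ranged over 0.72, from -0.35 in L43-5 to 0.37 in L49-3, and Eya1 over 0.48, with adjusted p-values of 0.564 and 0.629. Eya3, Six5 and Six4 ranged over 0.26, 0.37 and 0.15, with adjusted edgeR p-values of 0.709, 0.863 and 0.972. The median range was 0.48 for the tested members and 0.32 for all genes. Of the variation in log2 level over the 8 libraries, embryo took up 81.3% for Eya3 and 68.4% for Dach1, against a median of 48.5% over all genes. Six2, Eya1 and Eya2 lay near that median, at 42.3%, 44.9% and 49.3%. Embryo took up 13.8% for Six4, where 83.0% belonged to neither embryo nor side, against a median of 35.7%. Side took up 24.0% for Six2, 24.0% for Eya1 and 19.9% for Eya2, against a median of 7.28% over all genes, and 0.615% for Dach1. The total spread of Eya3 was small, an SD of 0.12 on the log2 scale, against a median of 0.20.

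**Figure D4:**
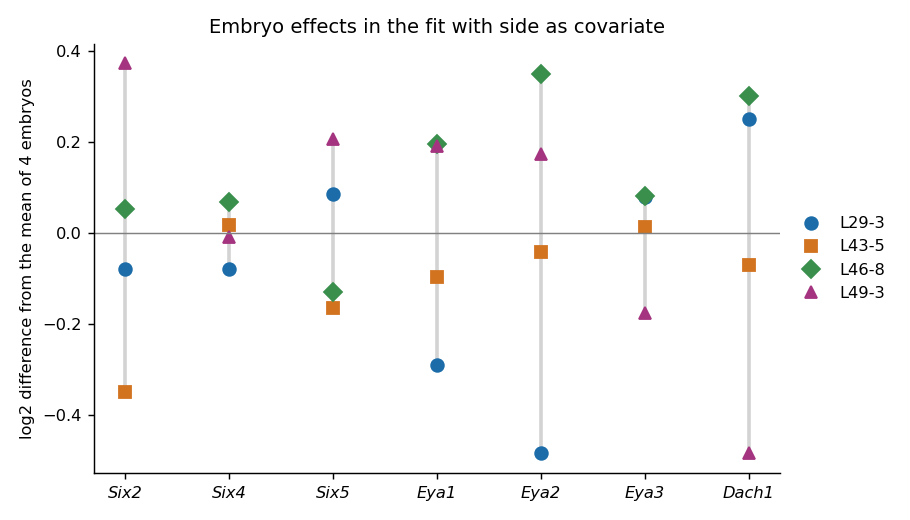
Fitted log2 level of each tested gene in each embryo, relative to the mean of the 4 embryos, with grey lines spanning the range. L49-3 lies highest for Six2 and lowest for Dach1 and Eya3, and the range is widest for Eya2 and smallest for Six4.

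Marker sums were set beside the members within each embryo. For the juxta-cardiac field the left sums of L29-3, L43-5, L46-8 and L49-3 were 213, 285, 425 and 48.0, and the right sums 354, 280, 203 and 51.5. Dach1 was higher on the same side as this sum in 4 of 4 embryos, and both were lowest in L49-3. In L43-5 the Dach1 log2 ratio of 0.11 is below its counting error of 0.144. There and in L49-3 only Hand1 went with Dach1, while Tbx5 and Mab21l2 leaned to the other side. The cardiomyocyte and endothelium sums were also lowest in L49-3, at 356 and 1369 and at 587 and 427 (left and right). The otic and placodal ectoderm markers, of which Oc90 was at 0 in every library, gave left sums of 105, 77.6, 107 and 153 and right sums of 59.4, 93.9, 102 and 68.1 in the same order. Six2 was higher on the same side as this sum in 4 of 4 embryos, and both were highest in the left library of L49-3. In L43-5 and L46-8 that side rests on Six2 log2 ratios of -0.04 and 0.01, smaller than their counting errors of 0.20 and 0.23. The otic and placodal markers were split in L46-8. There Pax2 (20.3 left, 31.7 right) and Dlx5 (5.70 left, 16.5 right) leaned to the right, and Pax8 and Foxi3 to the left. Dlx5 also leaned to the right in L29-3, while every detected marker of the list went with the sum in L43-5 and L49-3. Six2 also shared the side of the head mesoderm sum in 4 of 4, and Six5 those of the surface ectoderm and paraxial mesoderm sums. No head mesoderm marker reached a mean of 20 normalized counts, and the sums of that list in L49-3 were 20.1 (left) and 19.9 (right). The paraxial mesoderm sum had a log2 ratio of only 0.0187 in L49-3. Eya1, Eya2 and Six4 shared the sides of the neural crest sum in 4 of 4 embryos, a sum made mostly of Crabp1 (mean 420 normalized counts), with Sox10 at 3.96 and Foxd3 at 2.27. These pairs were picked out of 88 pairs of a marker list and a member, of which 8 had the same side in 4 of 4 embryos and 5 the opposite. The part of these cell types in the levels of Dach1, Six2, Six5, Eya1, Eya2 and Six4 was not tested.

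**Figure D5:**
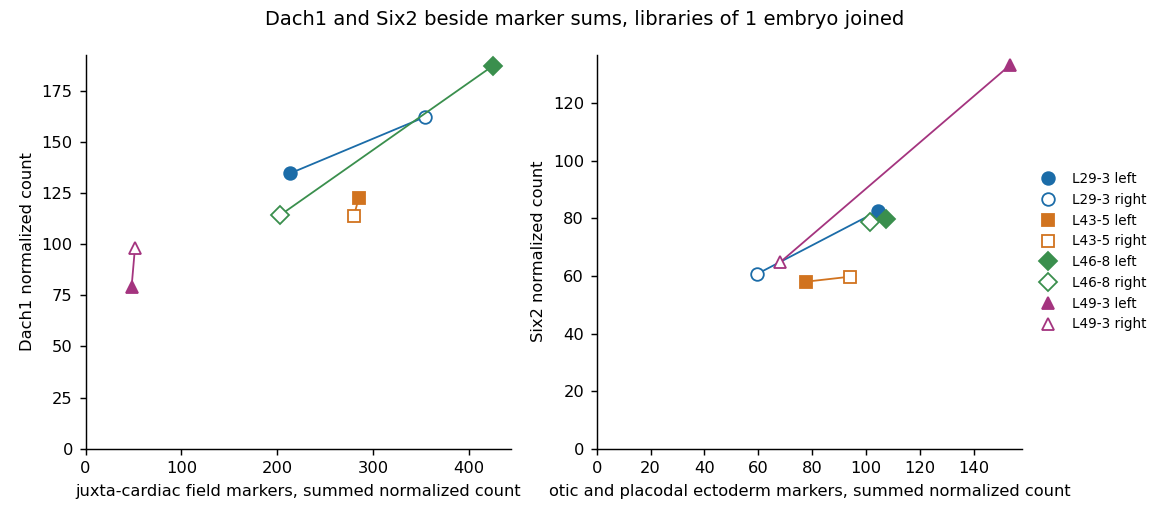
Normalized counts of Dach1 against the summed juxta-cardiac field markers and of Six2 against the summed otic and placodal markers, with lines joining the left (filled) and right (open) library of an embryo. The line of each embryo rises from the lower to the higher marker sum in both panels, and L49-3 lies alone at the lower left for Dach1.

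The genes most like Six2 over the 8 libraries, by the root mean square difference of centred log2 levels, were Fgf10 (0.151), 0610030E20Rik (0.159) and Ppard (0.167), where the median over all genes tested was 0.414. Fgf10, the growth factor expressed in second heart field progenitors, had log2 ratios of 0.25, 0.06, 0.20 and 0.52 in L29-3, L43-5, L46-8 and L49-3. For Eya1 they were Zfp12 (0.105), Tmem132c (0.112) and Upf3b (0.112), with a median of 0.367. Within the family, Eya1 lay closest to Eya2 (0.218) and Six4 (0.221), then to Six2 (0.251). Dach1 lay farthest from both, at 0.621 from Six2 and 0.586 from Eya1, which is above the median of all genes.

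Of 18 upstream factors and cofactors of the network, 17 were tested, and 3 passed the threshold of the study between sides (3.05% of all genes), with none at an adjusted p under 0.05 (0.0103%). Skil, a relative of the DACH and SKI corepressors, had more counts on the left in 4 of 4 embryos (80.4 ± 14.7 against 59.8 ± 9.64 normalized counts, mean ± SD over 4 libraries), with a log2 fold change of 0.41 and an unadjusted edgeR p of 0.0159. H2afx, the histone that EYA phosphatases act on, had fewer counts on the left in each of 4 embryos, with a log2 fold change of -0.28 and an unadjusted edgeR p of 0.0308. Pax6, also a marker of the neural tube, was lower on the left in 3 of 4, with a log2 fold change of -0.83 and an unadjusted edgeR p of 0.0142. The sum of the 5 neural tube markers, of which Pax6 is 1, was lower on the left in the same 3 embryos, with log2 ratios of 0.43, -0.74, -1.36 and -0.37 in L29-3, L43-5, L46-8 and L49-3. The part of neural tissue in this value was not tested. Their adjusted p-values were all 0.987, and the median of the list was 0.01.

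Of 12 genes described as targets of SIX-family and EYA proteins, 8 were tested and 0 passed between sides, against 3.05% of all genes, with a median of -0.04. After Pax6, Skil and H2afx, the next p-values over both lists were those of the target Slc12a2, an ion transporter with a log2 fold change of 0.18 (unadjusted edgeR p of 0.0664), and of the upstream factor Tbx1, the pharyngeal T-box factor, at -0.36 (0.0832). Between embryos, the 5 lowest p-values of both lists were those of Pax9 (unadjusted edgeR p of 0.00860, adjusted 0.268), Pax6 (0.0278), Fgf10 (0.0280), Pax1 (0.0283) and Ezr (0.0351). These were 3 of 17 upstream genes and 2 of 8 targets at an unadjusted p of at most 0.05, against 9.99% of all genes, and 0 genes of either list passed the adjustment, against 0.174%. In L49-3, Pax6 was 0.84 above the mean of embryos on the log2 scale, Pax9, a factor of pharyngeal endoderm and sclerotome, 0.58 above, Pax1 0.52 above and Fgf10 0.40 above. The neural tube sums were also highest there, at 551 (left) and 711 (right), and their part in these values was not tested. Ezr, which encodes ezrin, was lowest there, at -0.23.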

How the data were processed

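The deposited table holds raw counts per gene for 8 libraries, which the authors made from paired-end reads of polyA RNA. The tools named in the submitters' processing notes are HISAT2, featureCounts (Subread), DESeq2 and limma 3.40.6, and the builds GRCm38 and mm10. Counts were taken as deposited, and their totals lie well below the read depth that the labels give. The study states that duplicate reads, which were frequent, were excluded. The strand setting of the counting was not given in the sources used here.

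Counts were tested with edgeR 4.0.16 in R 4.3.3 (quasi-likelihood, TMM factors, embryo as block), with DESeq2 1.42.0 and limma 3.58.1 as alternatives. As in the study, genes had to reach 20 normalized counts (DESeq2) in 4 or more libraries, which kept 9744, and p-values were adjusted over them by the Benjamini-Hochberg method. Embryo differences were tested with side as a covariate. The left and right libraries of an embryo come from 1 animal, which is why they were paired. Deviations from the group means correlated at 0.165, 0.190, -0.0158 and 0.437 within L29-3, L43-5, L46-8 and L49-3. Between libraries of different embryos the correlations ran from -0.389 to 0.255, so only that of L49-3 lay above this range. No 2 libraries were alike within sampling noise. Embryo ratios used a pseudocount of 0.5 CPM, and CPM per kilobase used the exon union of GENCODE vM21. The fit was tested on simulated counts with known changes in 200 genes per test. At a fold of 2, edgeR recovered 92% of the side changes with 8 false calls. It recovered 62% of the embryo changes with 21 false calls. Folds below 2, such as those of the members between sides, were not simulated. The floor of 3 counts and the counting errors cover counting error only.

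The genes and lists were chosen with earlier results of these data known. Genes named beyond the 8 were the other Six and Dach genes, the 5 lowest p-values per test in the upstream and target lists, the 3 genes most like Six2 and Eya1, and close neighbours. The 3 genes most like Dach1 and the marker pairs were chosen after their values were seen. Other marker lists gave sums of 102 to 195 (surface ectoderm), 127 to 186 (foregut endoderm), 427 to 776 (endothelium), 340 to 552 (paraxial mesoderm), 13.6 to 31.5 (head mesoderm) and 255 to 632 (neural crest) normalized counts. There is 1 gene of the lists that is not reported here.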

Additional observations from a re-analysis of the deposited data

How the results depend on the processing

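Left against right, 1 gene passed an adjusted p under 0.05 and 297 the threshold of the study. With no filter on low counts these were 34 and 687, with at least 10 counts in every library 0 at the adjusted p, and with DESeq2 2 and 59. Leaving out each embryo in turn gave 1 to 5 and 291 to 388 genes. Without the replicate block, that is with the pairing by embryo dropped, 0 genes passed the adjusted p, and Six2 had a log2 fold change of 0.38 (SE 0.221), Eya1 of 0.27 and Eya2 of 0.34. The block changed no call of the members.

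Of the members, 0 passed the threshold of the study, but 2 did with no filter (Six2 0.34, Eya1 0.30) and 0 to 2 when an embryo was left out. The sign turned 3 times, all in values that pass no test: Six4 to -0.0701 without L29-3 (range to 0.24), Six5 to 0.0210 without L43-5 (from -0.24) and Dach1 to -0.12 without L46-8 (range to 0.23). The other 69 of 77 member values kept their direction and call, and 5 passed the threshold anew. Between embryos 17 genes passed the adjusted p, against 641 with no filter, 9 with at least 10 counts in every library, 51 with DESeq2, 4 with limma-voom and 0 to 237 with an embryo left out (0 without L49-3). Of the members 1, Dach1, passed with no filter (adjusted edgeR p of 0.00872). The cause was not tested. Levels per kilobase moved for 5 members with the longest transcript. Counting error limits the ratios of Eya2, Eya4 and Six5 most, at up to 0.42, 0.62 and 0.37 on the log2 scale.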

Other observations

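The genes most like Dach1 over the 8 libraries were looked up after its embryo values were seen. They were Fam3a, Lamb2 and Dsg2, at root mean square differences of 0.112, 0.124 and 0.134 on the log2 scale, where the median over all genes tested was 0.408. In L29-3, L43-5, L46-8 and L49-3, Fam3a had log2 ratios of left over right of 0.0165, -0.13, 0.68 and -0.24. Those of Lamb2, a laminin chain of basement membranes, were -0.34, -0.11, 0.48 and -0.22, and those of Dsg2, a desmosomal cadherin, -0.36, 0.0207, 0.36 and -0.64. Among the members, Eya3 was closest to Dach1 (0.267) and Eya2 farthest (0.737).

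Six3 was scarce on both sides. Its left libraries held between 2.61 and 24.8 normalized counts and its right libraries between 0 and 8.88. The highest value was in the left library of L49-3, which rested on 16 raw counts. The exact permutation p of the embryo ratios was 0.25. Their counting errors in L43-5, L46-8 and L49-3 were 1.61, 0.711 and 0.739 on the log2 scale. No such error could be given for L29-3, where the right library held 0 counts. Six3 shares 168 exon bases with the antisense gene Gm28528 and 106 with Six3os1, both on the opposite strand, and since the strand setting of the counting was not given in the sources used here, the reads of these bases cannot be told apart.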
